A study of Mus musculus with 4 samples.

Results

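The genes described here are 31 enzymes of the pentose phosphate pathway and of nucleotide synthesis, read from 4 mouse microarrays of cells undergoing reprogramming with or without AKT activation. They were chosen by gene name on the array. They are 31 of the 34816 genes or transcripts on the array, and 45 of its 55681 probes read them. They fall into 4 classes: 7 pentose phosphate genes, 13 purine genes, 5 pyrimidine genes and 6 deoxynucleotide genes.

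The cells were fibroblasts of male E13.5 embryos (OE-MEFs), in which the Oct4 promoter and enhancer drive an EGFP reporter, and per the study's methods the embryos were pooled. All 4 groups carried retroviral Oct4, Sox2 and Klf4 (OSK). In 2 of the groups (OSKA) a retrovirus also carried AKT-MER, a fusion of myristoylated AKT with a modified estrogen receptor that its ligand 4-hydroxytamoxifen (4OHT) switches on. From 3 days postinfection (dpi) the cells received 4OHT or the ethanol vehicle, and RNA was taken at 8 dpi. The groups were thus OSK-4OHT (factors and vehicle), OSK+4OHT (factors and ligand), OSKA-4OHT (factors and silent AKT-MER) and OSKA+4OHT (factors and activated AKT-MER). Groups follow the sample titles. The description of the OSKA+4OHT sample is worded as if AKT-MER were inactive, against its title and the series design. Each group was 1 array, so no difference has a replicate check, no test was possible and precision is limited by the number of arrays. They took 4 positions of 1 slide, so that a group and its position cannot be told apart.

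The arrays gave 4 comparisons, each of 1 array with another. The ligand difference is the level with 4OHT minus that without, taken in OSKA cells, where it switches AKT-MER on, and in OSK cells, which have no AKT-MER. The construct difference is the level in OSKA minus that in OSK cells, taken with and without 4OHT.

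The pentose phosphate pathway branches off glycolysis at glucose 6-phosphate. Its oxidative arm makes NADPH, its nonoxidative arm exchanges sugar phosphates with glycolysis, and both deliver ribose 5-phosphate for nucleotides. Purines are built stepwise on activated ribose, pyrimidine rings are built first and then joined to it, and ribonucleotide reductase turns ribonucleotides into the deoxynucleotides that DNA synthesis consumes. AKT signalling is known to favour glucose uptake and anabolic metabolism, and Myc is a well-known activator of nucleotide synthesis genes.

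A level is the log2 intensity of a probe minus the 75th percentile of its own array, so that 0 is the intensity at that percentile. Levels are compared between arrays for 1 gene, never between genes. For each gene the brightest probe was used, and all 31 of these probes were well above background on all 4 arrays. The error beside a log2 difference comes from the scanner software's error model of single spots. It was 0.20 for most members and reached 0.38 for Cad, and it covers the measurement on these arrays, not the spread between cultures. On the arrays 52.4 to 55.4% of spots were well above background and none was saturated. In such bulk RNA, fewer cells of a type and less RNA per cell cannot be told apart. All 10 fibroblast markers were well above background on every array. So were all 4 blood cell markers read by the array (Ptprc, Cd68, Adgre1, Itgam), all 6 epithelial, 3 of 5 endothelial and 4 of 6 pluripotency markers. Cdh5 and Emcn of endothelium, and Zfp42 and Esrrb of pluripotent cells, were not well above background on any array. The summed level of the fibroblast markers ran from 10.50 to 10.68, that of the blood markers from 6.14 to 6.46 and that of the epithelial markers from 1.24 on the OSKA-4OHT array to 2.01 on the OSK-4OHT array. The part of these cells in the results below was not tested.

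Activation of AKT-MER came with small differences in these genes, and the classes differed in direction. In OSKA cells 16 of 31 members were higher with 4OHT than without, where 45.2% of all measured genes were. Their median log2 difference was 0.00060, beside -0.031 over all genes, and it turned negative with the normexp background correction and where all measured probes of a gene were averaged. The range was -0.50 (Paics) to 0.52 (Rrm2). No member was 1.5-fold higher, as 5.06% of all genes were, and none was 1.5-fold lower, as 4.63% were. The deoxynucleotide genes had a median of 0.30 with 5 of 6 higher, and the pentose phosphate genes a median of 0.10 with 4 of 7 higher. The purine genes had a median of -0.093 with 10 of 13 lower. These 3 directions were the same under every scaling, filter and probe choice tried. The pyrimidine median was 0.035, and it turned to -0.017 where all measured probes of a gene were averaged. The lower purine levels with 4OHT were not limited to OSKA cells. The ligand difference of the purine genes in OSK cells had a median of -0.17, with 11 of 13 lower. The pentose phosphate and deoxynucleotide medians in OSK cells were -0.073 and -0.065, opposite in sign to those in OSKA cells.

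**Figure D1:**
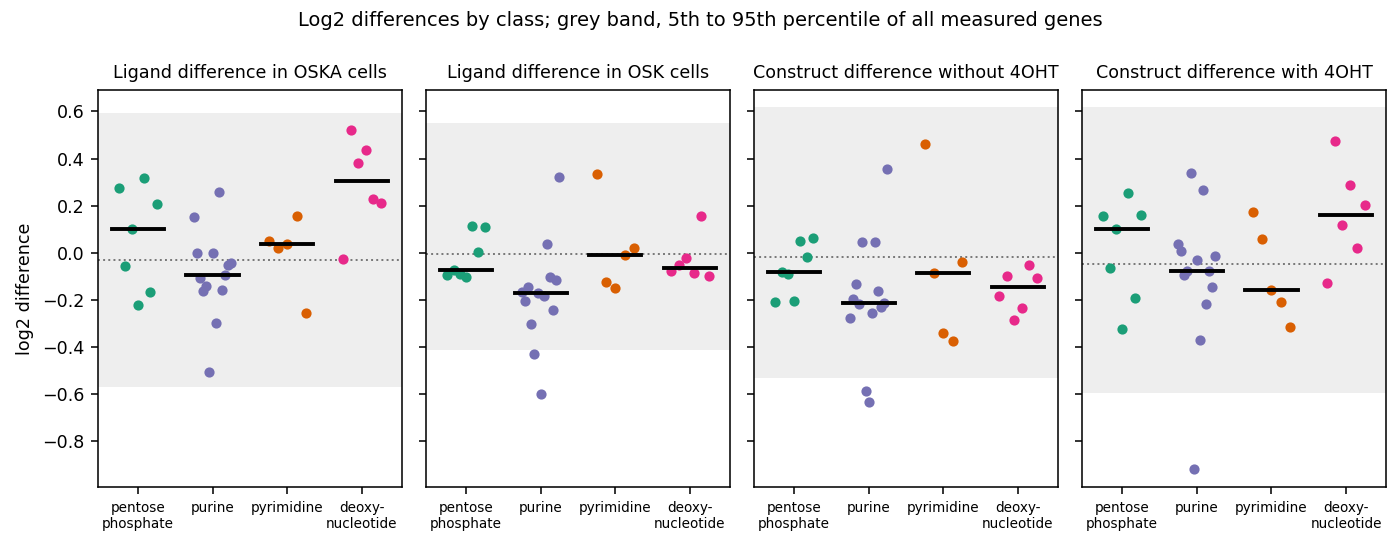
Log2 difference (y axis) of each of the 31 genes in the 4 comparisons of 1 array with another, by class (x axis). Points are genes, black bars class medians, the grey band runs from the 5th to the 95th percentile of all measured genes and the dotted line is their median. In the ligand difference in OSKA cells the deoxynucleotide genes lie highest, with a median of 0.30, and Paics lies lowest of all points in the construct difference with 4OHT, at -0.92.

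In OSK cells, which lack AKT-MER, most members were a little lower with 4OHT than without. Of the 31 genes 8 were higher, where 49.4% of all genes were, and the median was -0.092 beside -0.0036 over all genes. Adsl was the only member past 1.5-fold, on the lower side, where 1.63% of all genes lay, and no member was 1.5-fold higher, where 4.33% lay. No member was past 1.5-fold on the lower side with quantile normalization, with or without normexp correction, and 3 were under spike-in scaling. Spike-in scaling lowers all genes in this comparison, and the share of all genes past 1.5-fold was not counted for it. The ligand difference was greater in OSKA than in OSK cells for 23 of 31 members, and for 45.7% of all genes measured on all 4 arrays. All 6 deoxynucleotide genes were among the 23, with a median gap of 0.36 between the 2 ligand differences. Of the 13 purine genes 9 were among the 23, with a median gap of 0.14. That quantity uses all 4 arrays and was added after the values were seen.

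Silent AKT-MER also went with lower levels. Without 4OHT, 6 of 31 members had a higher level in OSKA cells, where 47% of all genes were, and the median was -0.16 beside -0.017 over all genes. Again Adsl alone was 1.5-fold lower, as 3.99% of all genes were, and no member was 1.5-fold higher, as 5.66% were. The count of 1 became 0 with normexp and quantile normalization, 2 with median scaling and 16 under spike-in scaling. That scaling lowers all genes against the OSK-4OHT array, and the share of all genes past 1.5-fold was not counted for it. The 16 can therefore not be read as particular to the members. On the reported scale Paics, at 0.667-fold, lay just short of 1.5-fold lower. All 6 deoxynucleotide genes were lower in that comparison, by 0.054 (Tk1) to 0.28 (Tyms) on the log2 scale. For Rrm2, Tyms, Dut, Tk1 and Nme1 the ligand difference in OSKA cells thus started from a level below that of the OSK-4OHT array. With 4OHT on both sides, 15 of 31 members had the higher level in OSKA cells, where 42.9% of all genes were. The median was then -0.013 beside -0.049 over all genes, and it turned to 0.0071 with quantile normalization. Paics was 1.5-fold lower, as 5.1% of all genes were, and no member was 1.5-fold higher, as 5.46% were.

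On the reported scale no member reached 2-fold in any of the 4 comparisons. Of all genes, 2.91% did so in the ligand difference in OSKA cells and 0.886% in that in OSK cells, and 2.02% did so in the construct difference without and 3.04% with 4OHT. Under spike-in scaling Paics and Adsl were past 2-fold lower in the construct difference without 4OHT, and Paics in that with 4OHT. That scaling lowers all genes against the OSK-4OHT array, and the share of all genes past 2-fold was not counted for it. Each array enters 2 of the 4 comparisons, so these are not independent of each other. At a lower threshold, 0.322 on the log2 scale, Rrm2, Tyms and Dut were higher in the ligand difference in OSKA cells, as 12% of all genes were, and Paics was lower, as 14.9% were. Rpe, at 0.318, lay just short of it. In OSK cells Adssl1 and Cad were past it on the higher side (12.4% of all genes) and Pfas and Adsl on the lower (8.55%). In the construct difference without 4OHT, 2 members were higher (14.7% of all genes) and 4 lower (11.6%). With 4OHT on both sides, 2 were higher (12.4%) and 3 lower (17.2%).

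The array on which a gene was highest split the members. The OSKA+4OHT array held the highest level of 11 members, and of 27.3% of all genes. These were G6pdx, Pgd, Rpe, Taldo1, Impdh1, Cad, Rrm2, Tyms, Dut, Tk1 and Nme1, and thus 5 of the 6 deoxynucleotide genes. Only Rpe, Impdh1 and Rrm2 lay above the next array by more than the single-spot error. The OSK-4OHT array, with neither AKT-MER nor ligand, held the highest level of 16 members and of 31.6% of all genes, and 10 of the 16 were purine genes. Of the 16 only Gart, Adsl and Gmps lay above the next array by more than that error. Of the 4 blood cell markers, Ptprc, Cd68 and Adgre1 were lowest on the OSK-4OHT array, with ligand differences in OSK cells of 0.50 to 0.64, and Itgam was highest there (-0.30); their part was not tested. The OSK+4OHT array was highest for 2 members (22.1% of all genes) and the OSKA-4OHT array for 2 (19% of all genes). The OSKA+4OHT array was also the lowest of the 4 for 12 members, where 37.5% of all genes were lowest. Scaling to the spiked-in control transcripts lowered every array against OSK-4OHT: the median of all genes became -0.30 in the ligand difference in OSK cells and -0.45 in the construct difference without 4OHT. Under that scaling 28 members, and 77.2% of all genes, were highest on the OSK-4OHT array, and 2 members, and 9.93% of all genes, on the OSKA+4OHT array. These 2 were Cad and Rrm2, so that the other 9, Tyms, Dut, Tk1 and Nme1 among them, lost that place.

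**Figure D2:**
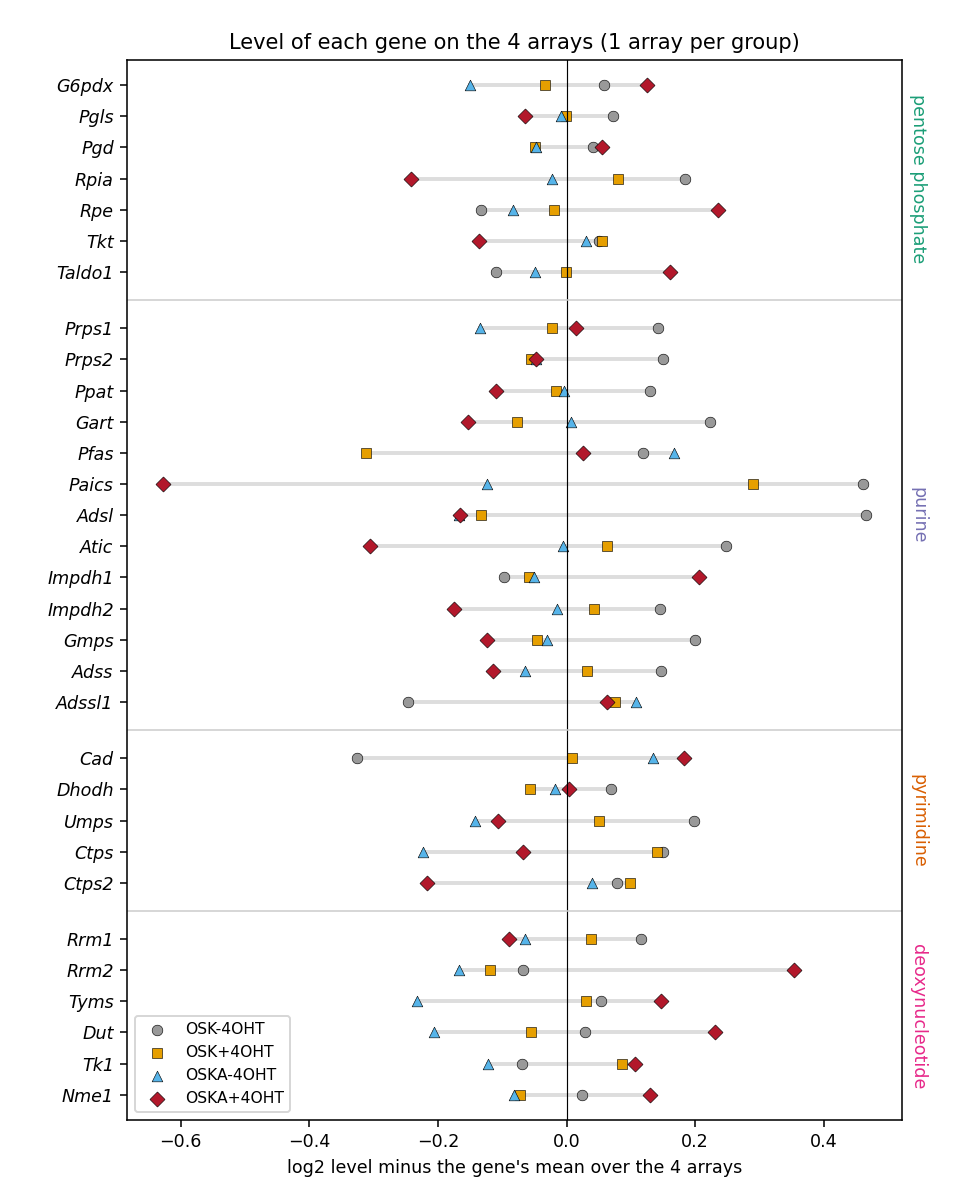
Level of each of the 31 genes on the 4 arrays, as the log2 level minus the mean of that gene over the 4 arrays (x axis), with genes grouped by class (y axis) and 1 symbol per array. The OSKA+4OHT symbol lies farthest right for 5 of the 6 deoxynucleotide genes (1 under spike-in scaling, not plotted), by more than the single-spot error only for Rrm2. It lies farthest left for 12 genes, Paics, Atic and Impdh2 among them, and the OSK-4OHT symbol lies farthest right for most purine genes.

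The promoters of the members were searched for letters that transcription factors of this biology are known to bind. RefSeq promoters (GRCm38.p6, 250 bases before to 50 after each start) were given for 29 members, as 35 windows. The palindromic E-box CACGTG, the site that Myc and Max bind, was in 6 of the 35 windows (17.1%) and in 7.15% of all 32851 windows. It was found for 5 members: Paics, Atic and Impdh2 of purine synthesis, and Tyms and Nme1 of the deoxynucleotide class. On their brightest probes the 3 purine genes were lower in all 4 comparisons and lowest on the OSKA+4OHT array, whereas Tyms and Nme1 were highest there. Pgls, Rpia, Ppat, Gart, Gmps, Adss and Rrm1, whose windows held no E-box, were likewise lower in all 4 comparisons and lowest on that array. It was lowest for 12 of 31 members and for 37.5% of all genes. One of the E2F-like words TTTCCCGC, TTTGGCGC, TTTCGCGC or TTTGCCGC, searched on both strands, was in the windows of Prps2 and Ppat (5.71% of member windows and 2.26% of all). CCAAT, also on both strands, was in 11 of 35 windows (31.4%) and in 37.4% of all. No matches overlapped in these windows. The 250 bases before the start are printed for the 5 genes with an E-box, because they went different ways, and for Rrm2, the member with the largest ligand difference in OSKA cells. They are given 5′ to 3′ on the gene's strand, and capitals mark the E-box and CCAAT words.
Paics, chr5:76951052-76951301, plus strand: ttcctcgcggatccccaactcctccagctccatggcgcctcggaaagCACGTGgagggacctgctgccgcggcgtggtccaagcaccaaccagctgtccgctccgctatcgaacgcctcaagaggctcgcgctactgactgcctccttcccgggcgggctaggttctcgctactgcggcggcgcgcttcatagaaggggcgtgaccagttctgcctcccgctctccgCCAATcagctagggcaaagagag
Atic, chr1:71556906-71557155, plus strand: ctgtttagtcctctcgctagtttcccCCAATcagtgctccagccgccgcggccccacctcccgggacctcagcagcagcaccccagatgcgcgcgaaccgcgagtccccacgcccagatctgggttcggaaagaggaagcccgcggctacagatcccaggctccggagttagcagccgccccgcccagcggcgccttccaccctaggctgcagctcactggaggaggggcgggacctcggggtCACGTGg
Impdh2, chr9:108560186-108560435, plus strand: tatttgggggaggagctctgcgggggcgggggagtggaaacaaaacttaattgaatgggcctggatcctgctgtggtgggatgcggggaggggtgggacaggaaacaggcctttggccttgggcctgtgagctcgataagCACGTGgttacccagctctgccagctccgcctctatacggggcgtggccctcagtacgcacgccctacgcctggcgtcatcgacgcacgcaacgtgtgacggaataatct
Tyms, chr5:30073626-30073875, minus strand: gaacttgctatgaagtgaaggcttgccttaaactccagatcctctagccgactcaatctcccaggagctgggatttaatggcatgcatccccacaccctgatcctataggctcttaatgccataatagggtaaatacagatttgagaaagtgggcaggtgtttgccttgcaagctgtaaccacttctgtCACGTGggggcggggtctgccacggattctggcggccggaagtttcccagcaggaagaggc
Nme1, chr11:93968273-93968522, minus strand: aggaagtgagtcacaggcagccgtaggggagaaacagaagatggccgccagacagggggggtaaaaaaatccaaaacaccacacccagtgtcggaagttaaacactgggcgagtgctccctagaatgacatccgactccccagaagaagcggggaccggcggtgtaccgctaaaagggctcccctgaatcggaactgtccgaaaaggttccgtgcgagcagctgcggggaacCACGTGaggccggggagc
Rrm2, chr12:24708004-24708253, plus strand: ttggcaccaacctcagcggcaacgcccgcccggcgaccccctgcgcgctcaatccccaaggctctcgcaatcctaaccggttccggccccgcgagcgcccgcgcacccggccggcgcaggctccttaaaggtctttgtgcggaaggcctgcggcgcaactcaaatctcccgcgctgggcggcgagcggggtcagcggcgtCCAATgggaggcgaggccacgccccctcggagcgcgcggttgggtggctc
The E-box began 203 bases before the start of Paics, 7 before that of Atic, 110 before that of Impdh2, 61 before that of Tyms and 18 before the start shown for Nme1. Rrm2 held no E-box in its window and a CCAAT word 50 bases before its start. Such a match is a description of letters, and binding was not measured.

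In the oxidative arm of the pentose phosphate pathway, G6pdx encodes glucose-6-phosphate dehydrogenase, the entry and rate-limiting step. Its levels were 4.07 on the OSK-4OHT, 3.98 on the OSK+4OHT, 3.86 on the OSKA-4OHT and 4.13 on the OSKA+4OHT array. The OSKA-4OHT array was lowest and the OSKA+4OHT array highest, and the ligand difference in OSKA cells was 0.28 ± 0.20, or 1.21-fold. Against the OSK-4OHT array, however, the OSKA+4OHT level of G6pdx lay within the single-spot error. Pgls, the lactonase that follows, differed by less than 0.1 in every comparison. Pgd, which makes ribulose 5-phosphate and the pathway's remaining NADPH, differed by 0.10 in the ligand difference in OSKA cells.

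In the nonoxidative arm the isomerase and the epimerase, which compete for ribulose 5-phosphate, went opposite ways. Rpia, the isomerase that makes ribose 5-phosphate, had levels of 0.23, 0.13, 0.028 and -0.19 in the order of arrays just given for G6pdx, which is kept from here on. Rpe, the epimerase that makes xylulose 5-phosphate, had levels of 0.38, 0.49, 0.43 and 0.75. Rpia was lowest and Rpe highest on the OSKA+4OHT array. The ligand difference in OSKA cells was -0.22 ± 0.20 for Rpia and 0.32 ± 0.20 for Rpe, the lowest and the highest value of the class. Transketolase and transaldolase, which shuffle carbon back to glycolysis, also differed in sign, with -0.17 ± 0.20 for Tkt and 0.21 ± 0.20 for Taldo1. The value of Tkt was within its error. The ligand difference in OSKA cells was thus at most 0.32 in size for all 7 genes.

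Purine synthesis starts from phosphoribosyl pyrophosphate, which 2 paralogous synthetases of the list make. Prps1 had levels of 2.46, 2.29, 2.18 and 2.33, and Prps2 of -0.46, -0.66, -0.65 and -0.66. Both were highest on the OSK-4OHT array, and the other 3 levels of Prps2 lay within 0.01 of each other. The ligand difference in OSKA cells was 0.15 ± 0.20 for Prps1 and under 0.01 in size for Prps2.

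Paics, which carries 2 consecutive steps of purine ring synthesis on a single protein, had the widest span of all 31 genes. Its levels were 4.34, 4.16, 3.75 and 3.25, so that it spanned 1.09 on the log2 scale over the 4 arrays. The level was highest with neither AKT-MER nor ligand, lower with AKT-MER and lowest with AKT-MER and 4OHT. The ligand difference was -0.50 ± 0.20 in OSKA cells (0.705-fold) and -0.17 ± 0.20 in OSK cells. The construct difference was -0.58 ± 0.20 without 4OHT (0.667-fold) and -0.92 ± 0.20 with 4OHT (0.529-fold). Under the other scalings and value sources the ligand difference in OSKA cells ran from -0.50 to -0.46. Spike-in scaling lowered the other differences of Paics, and both of its construct differences were then past 2-fold. Paics was read by 1 probe. Ppat, the amidotransferase that commits ribose to purines, starts on the opposite strand 276 bases away on chromosome 5, and the 2 annotated transcripts overlap at their 5′ ends. The levels of Ppat were -0.93, -1.08, -1.07 and -1.17, and its ligand difference in OSKA cells was -0.11 ± 0.21. Both neighbours were highest on the OSK-4OHT and lowest on the OSKA+4OHT array, over a range of 0.24 for Ppat. The other Ppat probe gave 0.024 for the ligand difference in OSKA cells.

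Adsl, the lyase that acts both in ring synthesis and in making AMP, stood out on a single array. Its levels were 0.96, 0.36, 0.32 and 0.32. The OSK-4OHT array lay above the other 3, which were within 0.04 of each other. Adsl was therefore 0.660-fold in the ligand difference in OSK cells and 0.645-fold in the construct difference without 4OHT. With normexp and quantile normalization these were -0.53 and -0.56 on the log2 scale, both short of 1.5-fold, and with quantile normalization alone the first was -0.57, also short of it. On the reported scale its ligand difference in OSKA cells was under 0.01 in size. Its only probe spans 989 bases in the files' coordinates. Pfas, an amidotransferase that acts earlier in the pathway than Paics, had levels of -0.63, -1.07, -0.59 and -0.73. It was lowest on the OSK+4OHT array, and its construct difference with 4OHT was 0.34 ± 0.21.

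Atic, which closes the purine ring, had levels of 2.73, 2.54, 2.47 and 2.17 on its brightest probe. It followed the order of Paics, with a ligand difference in OSKA cells of -0.30 ± 0.20 (0.813-fold). Its other probe, at levels of -0.20, -0.16, -0.21 and -0.023, was highest on the OSKA+4OHT array and gave 0.19 ± 0.20. The 2 Atic probes thus disagreed in sign, and their mean gave -0.056. Gart, which carries 3 steps of the same pathway, had a ligand difference in OSKA cells of -0.16 on its brightest and 0.029 on its other probe.

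**Figure D3:**
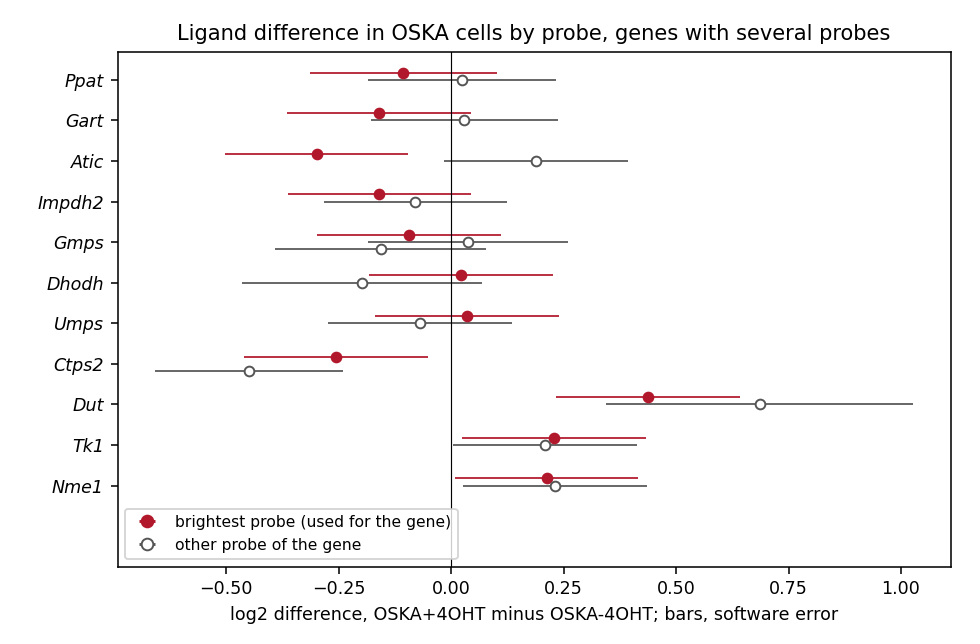
ligand difference in OSKA cells (log2 difference, x axis) for each probe of the 11 genes that had several (y axis). Filled symbols are the brightest probe, open symbols the others, bars the software error, and probes not well above background on all arrays are left out. The probes of Impdh2, Ctps2, Dut, Tk1 and Nme1 lie on the same side of 0 for each gene, and those of Ppat, Gart, Atic, Gmps, Dhodh and Umps lie on both sides.

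At the branch from IMP the guanine arm held a pair of paralogues. Their ligand differences in OSKA cells had opposite signs, and that of Impdh2 was within its error. Impdh1 had levels of 1.56, 1.60, 1.61 and 1.86, and Impdh2, the form that proliferating cells are known for, had levels of 4.68, 4.58, 4.52 and 4.36. The OSKA+4OHT array was the highest for Impdh1 and the lowest for Impdh2. Their ligand differences in OSKA cells were 0.26 ± 0.20 (1.20-fold) for Impdh1 and -0.16 ± 0.20 (0.895-fold) for Impdh2. The other Impdh2 probe gave -0.079. The value of Impdh1 was the highest among the purine genes and came from 1 probe. Gmps, which completes GMP, gave -0.093 ± 0.20 in that comparison on its brightest probe. Of its dimmer probes 1 went the other way in OSK cells, with 0.61 ± 0.25 against -0.24 on the brightest.

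The adenine arm held the remaining purine pair. Adss, the widely expressed adenylosuccinate synthase, had levels of 1.40, 1.29, 1.19 and 1.14. Adssl1, the form known from muscle, had levels of 0.56, 0.88, 0.91 and 0.87. Adss was highest and Adssl1 lowest on the OSK-4OHT array. The construct difference without 4OHT was -0.21 ± 0.20 for Adss and 0.35 ± 0.20 for Adssl1, and the ligand difference in OSKA cells was below 0.06 in size for both.

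Pyrimidine synthesis opens with Cad, a protein of 3 fused enzymes. Cad had levels of -3.91, -3.57, -3.45 and -3.40, near the lowest levels that counted as well above background (-4.90 to -4.54). Its error of 0.30 in the ligand difference in OSKA cells exceeded the difference of 0.049. The construct difference without 4OHT on Cad was 0.46 ± 0.35, and it became 0.079 with the normexp background correction. Dhodh, the mitochondrial dehydrogenase of the pathway, spanned 0.12 over the 4 arrays, and its ligand difference in OSKA cells was 0.022 on the brightest and -0.20 on the other probe. Umps, which completes UMP, was 0.790-fold in the construct difference without 4OHT and 1.02-fold in the ligand difference in OSKA cells, where its log2 difference was 0.035 on the brightest and -0.068 on the other probe.

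CTP synthase, the last step, was read for both paralogues. Ctps had levels of 4.16, 4.15, 3.78 and 3.94, and Ctps2 of 3.12, 3.14, 3.08 and 2.83. Ctps was lower on both OSKA arrays than on both OSK arrays, and Ctps2 was lowest on the OSKA+4OHT array. The ligand difference in OSKA cells was 0.16 ± 0.20 for Ctps, the highest value of the class, and -0.26 ± 0.20 for Ctps2, its only negative value. A further probe of Ctps2 gave -0.45 ± 0.21 and lay on the same side.

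Ribonucleotide reductase, the enzyme that makes deoxynucleotides, has a large and a small subunit. The ligand difference in OSKA cells exceeded its error for the small subunit only. Rrm1, the large subunit, had levels of 3.32, 3.24, 3.14 and 3.12. Rrm2, the small subunit whose amount is known to peak in S phase, had levels of 4.20, 4.15, 4.10 and 4.62. Rrm1 spanned 0.21 over all 4 arrays and was lowest on the OSKA+4OHT array, while Rrm2 was highest on the OSKA+4OHT array. The ligand difference in OSKA cells was -0.024 ± 0.20 for Rrm1 and 0.52 ± 0.20 (1.43-fold) for Rrm2. Rrm2 gave -0.052 in the ligand difference in OSK cells and 0.47 ± 0.20 in the construct difference with 4OHT. Over the alternative settings its ligand difference in OSKA cells ran from 0.51 to 0.56. Under spike-in scaling its ligand difference in OSK cells became -0.35, its construct difference without 4OHT -0.53 and that with 4OHT 0.38, so that its OSK-4OHT and OSKA+4OHT levels then differed by less than the software error.

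The enzymes that supply thymidine nucleotides were also highest on the OSKA+4OHT array, except under spike-in scaling. Dut, which hydrolyses dUTP and so yields the precursor of dTMP, had levels of 1.70, 1.61, 1.46 and 1.90. Tyms, which makes dTMP, had levels of -2.34, -2.37, -2.63 and -2.25. For both, the OSKA-4OHT array was lowest and the OSKA+4OHT array highest. Against the OSK-4OHT array, however, the OSKA+4OHT levels of Dut and Tyms were not higher by more than the single-spot error. The ligand difference in OSKA cells was 0.44 ± 0.20 (1.35-fold) for Dut and 0.38 ± 0.23 (1.30-fold) for Tyms. In OSK cells it was -0.085 for Dut and -0.022 for Tyms. The dimmer Dut probe gave 0.69 ± 0.34 in OSKA cells, and Tyms had 0.25 with the normexp correction.

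Tk1, the salvage kinase that phosphorylates thymidine, had levels of 3.03, 3.18, 2.98 and 3.20. Nme1, a nucleoside diphosphate kinase that completes the triphosphates, had levels of 4.21, 4.11, 4.10 and 4.32. In OSKA cells 4OHT went with 0.23 ± 0.20 for Tk1 and 0.21 ± 0.20 for Nme1, and their other probes gave 0.21 and 0.23. In the ligand difference in OSK cells the Tk1 probes disagreed in sign, with 0.15 on the brightest and -0.11 on the other, and in the construct difference with 4OHT they gave 0.020 and 0.12.

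**Figure D4:**
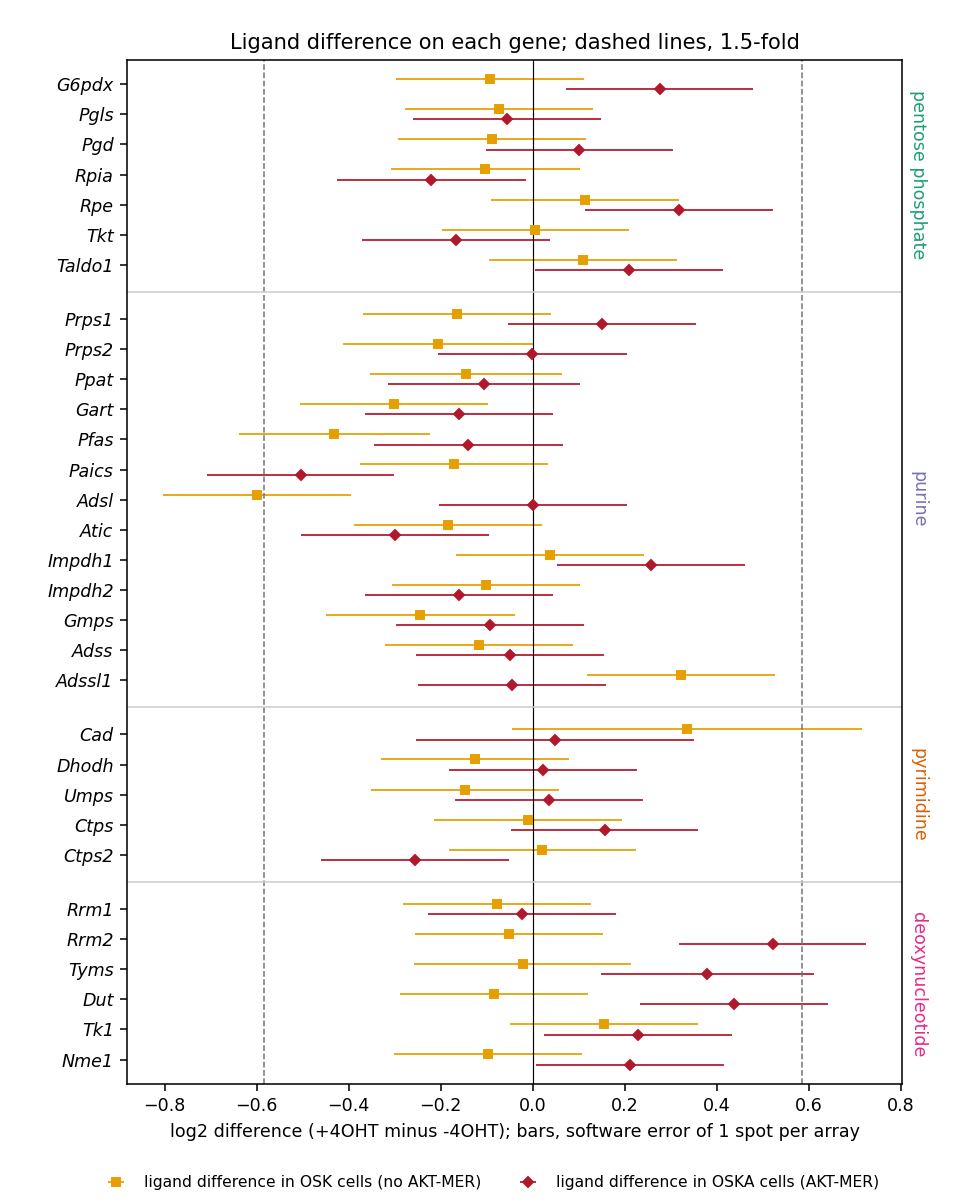
ligand difference (log2 difference of the array with 4OHT minus the array without, x axis) on each of the 31 genes (y axis, by class) in OSK cells (squares) and in OSKA cells (diamonds), with the software error as bars and 1.5-fold as dashed lines. The bars of the OSK and OSKA cells do not meet for Rrm2, Dut and Adsl.

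Genes around these pathways were read from lists that were likewise chosen with earlier results known. The counts are read beside all measured genes, of which 45.2% were higher in the ligand difference in OSKA cells and 5.06% at least 1.5-fold higher. Of 22 S phase and replication genes 17 (77.3%) were higher in that comparison, with a median of 0.12. In the construct difference without 4OHT 4 of the 22 (18.2%) were higher, where 47% of all genes were, and with 4OHT 13 of the 22 (59.1%, median 0.020), where 42.9% of all genes were. As for the deoxynucleotide genes, most of these differences in OSKA cells thus started from a level below that of the OSK-4OHT array. E2f2 (0.70) and Ccne1 (0.67), a transcription factor and a cyclin of S phase entry, were past 1.5-fold (9.09% of the list), and the lowest were Gins2 (-0.026) and Cdt1 (-0.013). The highest of the other 20 was Cdc6 (0.32), a replication licensing factor. Of the 6 deoxynucleotide genes Rrm2, Dut and Tyms lay above Cdc6, Tk1 and Nme1 below it, and Rrm1 (-0.024) between Gins2 and Cdt1.

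The folate genes, which carry the one-carbon units for purines and dTMP, had no common direction. Of 14 genes 7 (50%) were higher, 1 of them by at least 1.5-fold, and the median was -0.0056, which turned to 0.024 with normexp and quantile normalization and to 0.037 under spike-in scaling. The highest values were those of mitochondrial enzymes, Aldh1l2 (0.72) and Mthfd2 (0.57). The lowest were Mthfs (-0.41) and Shmt1 (-0.40), the cytosolic serine hydroxymethyltransferase. Mthfd2 had levels of -0.37, 0.0051, 0.41 and 0.98, in the reverse order of Paics.

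Salvage and breakdown genes held differences past those of the 31 members. Of 26 salvage genes and kinases 15 (57.7%) were higher (median 0.040), and 3 (11.5%) were past 1.5-fold, where 5.06% of all genes were: Cda (1.39), Cmpk2 (1.16) and Ak4 (0.80). The lowest there were Adk (-0.46), the adenosine kinase, and Tk2 (-0.39), the mitochondrial thymidine kinase. Of 16 breakdown genes 7 (43.8%) were higher, with a median of -0.024 that turned to 0.019 under spike-in scaling. Nt5e, the surface enzyme that makes adenosine from AMP, gave 1.499 and Gda, the guanine deaminase, gave 0.64, and these 2 were past 1.5-fold. Ampd3 (-0.49) and Xdh (-0.48) were the lowest. Of 7 further pentose phosphate and ribose genes 4 were higher (median 0.17), with Pgm2 (0.82) and Pgm1 (0.48) highest and H6pd (-0.34) and Prpsap1 (-0.29) lowest. Tktl1 and Tktl2, the transketolase relatives, were not well above background on 4 and 3 arrays.

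**Figure D5:**
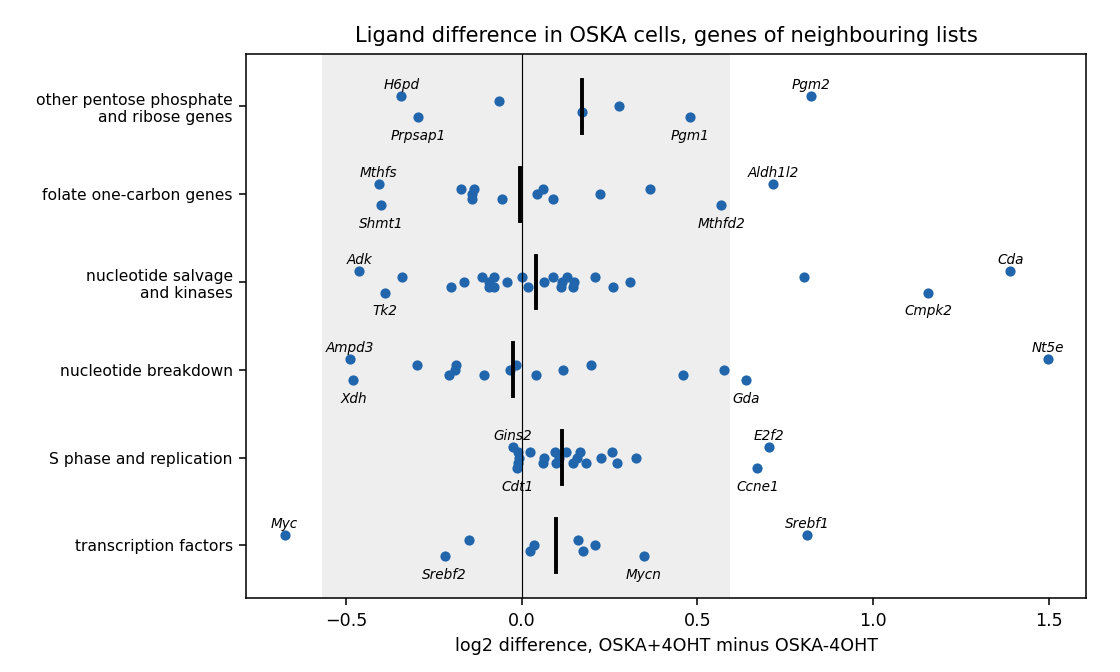
ligand difference in OSKA cells (log2 difference, x axis) for genes of 6 neighbouring lists (y axis). Points are genes, black bars list medians, the grey band runs from the 5th to the 95th percentile of all measured genes, and the 2 highest and 2 lowest genes of each list are named. Nt5e (1.499), Cda (1.39) and Cmpk2 (1.16) lie farthest right and Myc (-0.67) farthest left.

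Of 10 transcription factors known to act on these genes, Myc differed most on the lower side. Its levels were 1.70, 1.47, 1.07 and 0.40, in the same order of arrays as those of Paics, Atic and Impdh2 on their brightest probes. Pgls, Rpia, Adss and Rrm1, whose windows held no E-box, had that order too. Tyms and Nme1, whose windows held an E-box, did not. A link to Myc was not tested. The ligand difference on Myc was -0.67 ± 0.20 in OSKA cells and -0.23 ± 0.20 in OSK cells, and its construct difference with 4OHT was -1.07. Srebf1, which acts on lipid and NADPH genes, gave 0.81 in OSKA cells, Mycn gave 0.35 and Srebf2 gave -0.22, with 0.19 on its other probe. The list had 7 of 10 genes higher, with a median of 0.098. In the same comparison the 4 blood cell markers ran from -0.50 (Itgam) to 0.082 (Adgre1) and the 10 fibroblast markers from -0.67 (Pdgfrb) to 0.49 (Col3a1). The 6 epithelial markers ran from -1.27 (Esrp1) to 1.33 (Krt14), with Krt18 at 0.86 and Krt8 at 0.56, and their summed level was 2.01 on the OSK-4OHT, 1.69 on the OSK+4OHT, 1.24 on the OSKA-4OHT and 1.81 on the OSKA+4OHT array. The 4 pluripotency markers measured ran from -0.27 (Utf1) to 1.29 (Fbxo15), and the 3 endothelial ones from -0.44 (Tek) to 0.23 (Kdr). The summed level of the pluripotency markers was 0.65 on the OSK-4OHT, 0.85 on the OSK+4OHT, 0.51 on the OSKA-4OHT and 0.69 on the OSKA+4OHT array, so that OSK+4OHT was highest and OSKA-4OHT lowest, and Fbxo15 was likewise lowest on OSKA-4OHT (-2.29), with its highest level on OSK-4OHT (-0.89). The part of these cells was not tested.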

How the data were processed

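Gene expression was measured on 4 single-channel (Cy3) Agilent arrays, 1 per group, from 100 ng of total RNA each. The deposited scanner files hold a linear intensity per spot, background-corrected by Agilent Feature Extraction 10.7.3.1 per the file headers, and not normalized across arrays. The authors' series matrix gives that intensity in rounded form and served as an alternative. Here the 75th percentile of an array was subtracted from its log2 intensities. Control spots and spots marked as uneven or as outliers stayed out (104 to 155 marked spots per array). Spots of a probe were averaged, and the brightest probe stood for its gene. A difference was taken where that probe was well above background on both arrays, and all 31 members passed. Of the probes 49.4% were named through their accession in a RefSeq table of GRCm38.p6, and the rest under the array's own name. Probe coordinates are those of the files.

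The members and lists were chosen with earlier results of these data known. All 31 members are named. Levels on 4 arrays are given for members whose ligand difference in OSKA cells was at least 0.322 in size on the log2 scale or that were 1.5-fold apart in any comparison, for paralogue pairs and for the highest and lowest value of each class, and a few others were added after their values were seen. Of each neighbouring list the 2 highest and 2 lowest genes are named, and 1 gene of these lists is not reported here. With 1 array per group there is no test, and counts at 1.5-fold and 2-fold on the reported scale are set beside the share of all measured genes. Alternatives were no filter on dim probes, only probes above background on all arrays, quantile normalization, normexp correction (offset 50) with quantile normalization in limma 3.58.1 (R 4.3.3), spike-in scaling, median scaling, the mean of all measured probes, the series matrix, and other fold thresholds. Python 3.11.15, numpy 2.4.6, pandas 2.3.3 and matplotlib 3.10.9 were used, and the steps were tested on simulated data. The protein identity of paralogues and the place of a probe in its transcript were not analysed here.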

Additional observations from a re-analysis of the deposited data

How the results depend on the processing

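The 8 alternative settings gave 992 recomputed differences of single members. A change of sign was counted only where the reported difference was at least 1.5-fold, and none was found. Such differences were those of Adsl in the ligand difference in OSK cells and the construct difference without 4OHT, and of Paics in that with 4OHT. Sign changes of smaller differences were not counted. Of the 992, 66 moved by more than the software error of a single spot, 61 of them under spike-in scaling, which lowers all genes against the OSK-4OHT array. Under that scaling the median of the members became -0.39 in the ligand difference in OSK cells (pentose phosphate -0.37, purine -0.47, pyrimidine -0.30, deoxynucleotide -0.36), with 2 members higher and 3 at least 1.5-fold lower. In the construct difference without 4OHT it became -0.59 (pentose phosphate -0.51, purine -0.64, pyrimidine -0.52, deoxynucleotide -0.57), with 1 member higher and 16 at least 1.5-fold lower. The counts in these 2 comparisons have no share of all genes beside them. They cannot be read as particular to the members, because the scaling lowers all genes. The members highest on the OSKA+4OHT array became 2, and on the OSK-4OHT array 28. Adsl is the member past 1.5-fold in the ligand difference in OSK cells: the count was 0 with quantile normalization and with normexp and quantile normalization. In the construct difference without 4OHT the count of 1 became 0 with normexp and quantile normalization and 2 with median scaling. Under spike-in scaling Paics and Adsl were past 2-fold lower in the construct difference without 4OHT, and Paics in that with 4OHT. On the reported scale no member was past 2-fold in any comparison, so each count of 1 became 0. At a lower threshold, 0.322 on the log2 scale, 3 members were higher and 1 lower in the ligand difference in OSKA cells, 2 and 2 in OSK cells, 2 and 4 in the construct difference without 4OHT, and 2 and 3 in that with 4OHT. Averaging probes moved the single-member values of Atic (to -0.056 in the ligand difference in OSKA cells) and Gmps (to 0.098 in the construct difference without 4OHT). The cause was not tested where none is given. No paired analysis was possible because each group is 1 array, and for the same reason no replicate could be left out. Signal over background limits Cad, whose error was the largest of the members.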
